A study of Mus musculus with 2 samples.

Results

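The genes described here are 6 miRNA genes grouped as those of the eye and of endocrine cells, measured in the embryonic mouse face. They are Mir204 and Mir211 of pigment epithelium, the 3 Mir7 genes (Mir7-1, Mir7-2 and Mir7b) of neuroendocrine cells, and Mir383, which was grouped with them. They were found by their Ensembl identifiers among the 1973 miRNA genes of the deposited tables, and each matched 1 line. All 6 had at least 10 counts in both libraries, as did 360 genes in all. They were chosen by tissue and with their CPM and their difference between the 2 libraries in view, so both are given as descriptions and carry no test.

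The study holds 1 group, facial prominence tissue of B6NCrl mouse embryos at day 13.5, with males and females pooled. Its 2 libraries are labelled biological replicates 2 and 1, and RNA under 30 bases was sequenced. The labels call the embryos healthy and name no transgene and no agent. How many embryos went into a library is not stated in them. Replicate 2 had 5771249 counts on the strand of miRNA genes, and replicate 1 had 4562135. Levels are given as CPM (a gene's counts per 1000000 of that total) and are not divided by length because a small RNA read spans the mature molecule.

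The eye and the pituitary both form next to the facial prominences. Pigment epithelium lies behind the retina, and the front part of the pituitary grows from the roof of the mouth. The miR-204 and miR-211 molecules act on the same kinds of target because they share a seed, the stretch near the 5′ end that pairs with messenger RNA. They are known from retinal pigment epithelium, and miR-211 also from melanocytes, the pigment cells of skin. The miR-7 family is known from the pituitary, the hypothalamus and the islets of the pancreas, and in mice it restrains Pax6, a regulator of eye and endocrine development.

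The mature sequences are shown because they define the families and decide which reads could be counted. They come from RefSeq (build GRCm38.p6), which had entries for 5 of the 6 genes, all but Mir383. Capitals mark the seed, bases 2 to 8 from the 5′ end.

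miR-204-5p (Mir204): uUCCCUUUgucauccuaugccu

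miR-211-5p (Mir211): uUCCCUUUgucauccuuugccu

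miR-7a-5p (Mir7-1 and Mir7-2): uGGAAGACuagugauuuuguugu

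miR-7b-5p (Mir7b): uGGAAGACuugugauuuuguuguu

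The pigment epithelium pair differed at 1 of 22 positions, written A17U from miR-204-5p to miR-211-5p, counting from 1 at the 5′ end. The miR-7 forms differed at 1 of the 23 positions they share in length, A10U from miR-7a-5p to miR-7b-5p. Both differences lay outside the seed. The opposite arms of the pair, miR-204-3p and miR-211-3p, differed at 7 of 21 positions and did not share a seed. In the RefSeq table, miR-7670-3p of Mir7670 also had the seed of miR-204-5p, and its gene had 0 counts in both libraries. The seed of miR-7a-5p stood in the 3 Mir7 genes and in no other entry.

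Mir7-1 and Mir7-2 encode the same 23-base miR-7a-5p. Their hairpins also agree in the next base after it, and in no base before it, so that 24 bases in a row are identical. A read within that stretch has at least 2 places in the genome. Reads with several places stand in a class of their own in the files and are in no gene count. The levels of Mir7-1 and Mir7-2 therefore leave out an unknown number of miR-7a-5p reads. The opposite arms differ between the genes and are shown because they could be placed. Capitals again mark bases 2 to 8.

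miR-7a-1-3p (Mir7-1): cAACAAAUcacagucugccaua

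miR-7a-2-3p (Mir7-2): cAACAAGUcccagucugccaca

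miR-7b-3p (Mir7b): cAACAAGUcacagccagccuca

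These arms differed at 3 of 22 positions between Mir7-1 and Mir7-2 (A7G, A10C and U21C). The first of these lies in the seed, so miR-7a-1-3p has another seed than miR-7a-2-3p and miR-7b-3p. The files count a whole gene, so the share of each arm is not known.

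Of the 6 genes, 4 lay within introns of protein-coding genes on the same strand (GRCm38, named from GENCODE release M21). Mir204 (ENSMUSG00000065507.2) lies at chr19:22750605-22750672 on the plus strand in Trpm3, and Mir211 (ENSMUSG00000065585.1) at chr7:64205806-64205911 on the plus strand in Trpm1. Both hosts encode TRPM cation channels. Mir7-1 (ENSMUSG00000065434.1) lies at chr13:58392779-58392886 on the minus strand in Hnrnpk, which encodes a widely expressed RNA-binding protein. Mir383 (ENSMUSG00000065457.2) lies at chr8:38252133-38252202 on the minus strand in Sgcz, which encodes zeta-sarcoglycan.

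The other two lay between genes. Mir7-2 (ENSMUSG00000065609.1) lies at chr7:78888277-78888373 on the plus strand, 7.48 kb before Aen. Mir7b (ENSMUSG00000065491.1) lies at chr17:56242988-56243098 on the plus strand, 182 bases after the end of the long noncoding RNA gene AC026385.1. The 5 hairpins in the RefSeq table ran from 68 bases in Mir204 to 111 in Mir7b, with a GC content of 41.7% in Mir7-1 to 57.5% in Mir211. No member had a count on the opposite strand in either library, which allows up to 3 counts, or 0.520 CPM in replicate 2 and 0.658 CPM in replicate 1.

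Mir204, the pigment epithelium gene in Trpm3, was the most abundant of the 6. It had 979 counts in replicate 2 (169.6 CPM, 95% Wilson interval 159 to 181) and 426 counts in replicate 1 (93.4 CPM, 84.9 to 103). Its mean was 132 ± 53.9 CPM (SD, n = 2), which placed it 170th by level among the 360 genes. Both of its libraries stood above both libraries of each other member. The intervals cover counting error only and leave out variation between embryos and dissections. PCR copies are not independent molecules, so the intervals can be too narrow even for counting error.

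Mir211, its partner in Trpm1, was lower and nearly the same in count. It had 251 counts in replicate 2 (43.5 CPM, interval 38.4 to 49.2) and 249 counts in replicate 1 (54.6 CPM, 48.2 to 61.8). Its mean was 49.0 ± 7.84 CPM. The intervals of the libraries overlapped slightly, with replicate 1 the higher.

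Mir7-1 led the Mir7 genes in uniquely placed counts. It had 389 counts in replicate 2 (67.4 CPM, interval 61.0 to 74.4) and 272 counts in replicate 1 (59.6 CPM, 52.9 to 67.1), a mean of 63.5 ± 5.50 CPM. The intervals of the libraries overlapped.

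Mir7-2 had the lowest counts of the members, and these leave out its miR-7a-5p reads with several places. It had 39 counts in replicate 2 (6.76 CPM, interval 4.94 to 9.24) and 44 in replicate 1 (9.64 CPM, 7.18 to 12.9), a mean of 8.20 ± 2.04 CPM. The intervals overlapped here too. In mice, Mir7-2 is the Mir7 gene most tied to the pituitary, where its loss affects fertility.

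Mir7b, whose mature form is encoded at 1 place in the RefSeq table, differed more between libraries. It had 256 counts in replicate 2 (44.4 CPM, interval 39.2 to 50.1) and 106 counts in replicate 1 (23.2 CPM, 19.2 to 28.1). Its mean was 33.8 ± 14.9 CPM, and the intervals did not overlap.

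Mir383, studied in germ cells and in ovarian granulosa cells, followed the same pattern. It had 464 counts in replicate 2 (80.4 CPM, interval 73.4 to 88.1) and 193 counts in replicate 1 (42.3 CPM, 36.7 to 48.7). Its mean was 61.4 ± 26.9 CPM, and the intervals lay apart.

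**Figure D1:**
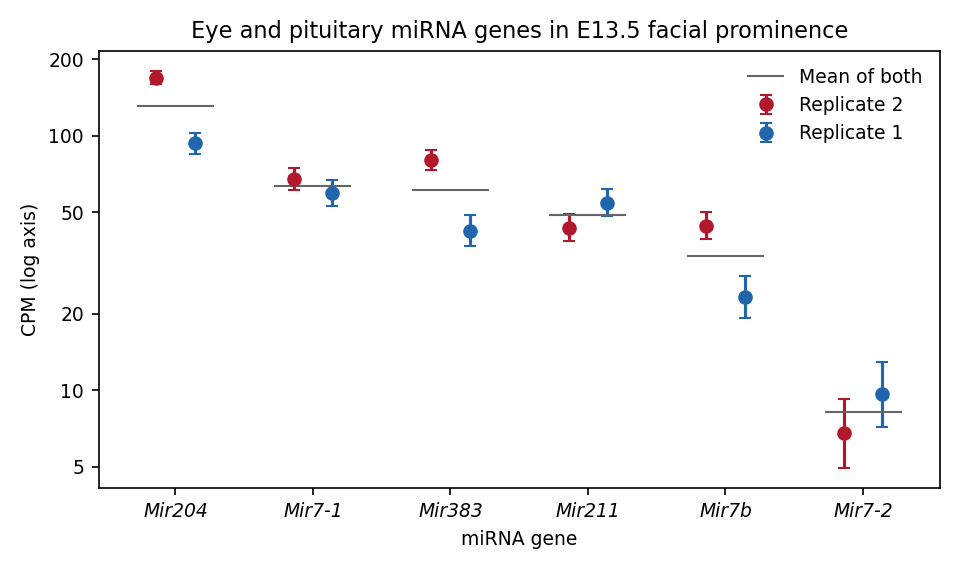
CPM (log axis) of the 6 genes, ordered by their mean. Red points are replicate 2 and blue points replicate 1, with 95% Wilson intervals for counting error, and grey lines are the mean of both; Mir204, Mir383 and Mir7b stand higher in replicate 2, and Mir204 stands above all others in both libraries.

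By mean level the order was Mir204, Mir7-1, Mir383, Mir211, Mir7b and Mir7-2. Between neighbours in that order, only Mir204 over Mir7-1 and Mir7b over Mir7-2 had library values that did not overlap. The values of Mir7-1 overlapped those of Mir383, those of Mir383 overlapped Mir211, and those of Mir211 overlapped Mir7b. The position of Mir7-1 and Mir7-2 leaves out their reads with several places.

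All 6 genes were minor parts of the facial miRNA pool. Together they held 0.0412% of counts in replicate 2 and 0.0283% in replicate 1, or 347 ± 91.4 CPM (SD, n = 2). The median gene with at least 10 counts in both libraries stood at 113 CPM, and Mir204 was the only member above it. The genes nearest to each member in level had library values that overlapped it. They were Mirlet7c-1 and Mir138-2 around Mir204, Mir208b and Mir346 around Mir211, and Mir493 and Mir412 around Mir7-1. Around Mir383 stood Mir412 and Mir146, around Mir7b stood Mir6944 and Mir669e, and around Mir7-2 stood Mir135a-2 and Mir499.

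Within the seed family of miR-204-5p, the balance between the 2 genes differed between libraries, a comparison that needs no scaling. The counts are of whole genes, with both arms together. Mir204 took 79.6% of the pair's counts in replicate 2 (95% Wilson interval 77.3 to 81.8) and 63.1% in replicate 1 (59.4 to 66.7). Its count was 3.90 times that of Mir211 in replicate 2 (exact interval 3.39 to 4.50) and 1.71 times in replicate 1 (1.46 to 2.01). The intervals of the 2 libraries lay apart. The pair summed to 213 CPM in replicate 2 and 148 CPM in replicate 1.

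Among the Mir7 genes, Mir7b took 37.4% of uniquely placed counts in replicate 2 (interval 33.9 to 41.1) and 25.1% in replicate 1 (21.2 to 29.5). Mir7-1 took 56.9% in replicate 2 (53.1 to 60.5) and 64.5% in replicate 1 (59.8 to 68.9). Mir7-2 took 5.70% in replicate 2 (4.20 to 7.70) and 10.4% in replicate 1 (7.86 to 13.7). The intervals of Mir7-1 overlapped between the libraries, and those of Mir7b and of Mir7-2 did not. A share also depends on the counts of the other genes. Mir7-1 had 9.97 times the count of Mir7-2 in replicate 2 (exact interval 7.17 to 14.2). In replicate 1 it had 6.18 times that count (4.48 to 8.71), and these intervals overlapped. Mir7-1 and Mir7-2 leave out miR-7a-5p reads with several places, so the share of Mir7b can be too high. The 3 genes summed to 119 CPM in replicate 2 and 92.5 CPM in replicate 1.

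**Figure D2:**
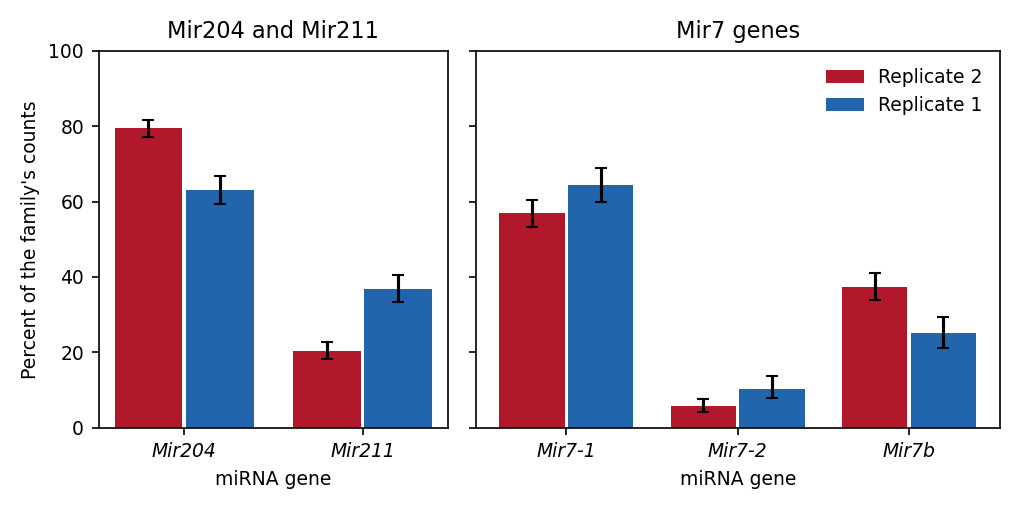
Percent of a family's uniquely placed counts (y axis) taken by each gene (x axis), for the Mir204 pair on the left and the Mir7 genes on the right. Bars are replicate 2 in red and replicate 1 in blue with 95% Wilson intervals; Mir204 takes 79.6% of its pair in replicate 2 and 63.1% in replicate 1, and Mir7b 37.4% and 25.1% of its family in these libraries.

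The difference between libraries was then set on a common scale, as the log2 ratio of replicate 2 to replicate 1 after TMM scaling, which sets the bulk of genes to a ratio near 1. Mir7b had the highest ratio of the 6, at 0.93 (95% exact counting interval 0.60 to 1.27), a 1.91-fold difference. Mir383 had 0.93 (0.68 to 1.18), a 1.90-fold difference, and Mir204 had 0.86 (0.70 to 1.03), a 1.82-fold difference. These 3 were higher in replicate 2 by over 1.5-fold.

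The other 3 stayed within 1.5-fold. Mir7-1 had a log2 ratio of 0.18 (interval -0.05 to 0.41). Mir211 had -0.33 (-0.59 to -0.07) and Mir7-2 had -0.51 (-1.17 to 0.14), so these were on the other side of 0, and the interval of Mir7-2 included 0. Members of 1 seed family thus stood on both sides, Mir204 above and Mir211 below, and Mir7b above and Mir7-2 below.

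So 3 of 6 members were over 1.5-fold higher in replicate 2, where 29 of the 360 genes (8.06%) were, and 0 of the 6 were over 2-fold higher. No member was over 1.5-fold lower in replicate 2, and again 29 of the 360 genes (8.06%) were. Because this difference helped to choose the members, nothing is read from these shares. The median log2 ratio was 0.52 over the 6 members and -0.01 over the 360 genes.

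The libraries differed in many genes. Over the 360 genes the log2 ratio had an SD of 0.46, and 90% of genes lay between -0.70 and 0.79. Mir7b, Mir383 and Mir204 held places 12, 13 and 14 from the top, while Mir7-1 held place 107, Mir211 place 294 and Mir7-2 place 324. Genes of like level varied as well. Among the 50 genes nearest to Mir204 in mean level, log2 ratios ran from -1.19 to 0.84, all below its own. Among the 50 nearest to Mir383, 2 were at least as high, and among the 50 nearest to Mir7b, 1 was. For Mir7-1 the number was 14 of 50, for Mir211 38 of 50 and for Mir7-2 37 of 50. The members were chosen with these ratios in view, so nothing is read from these places and numbers.

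**Figure D3:**
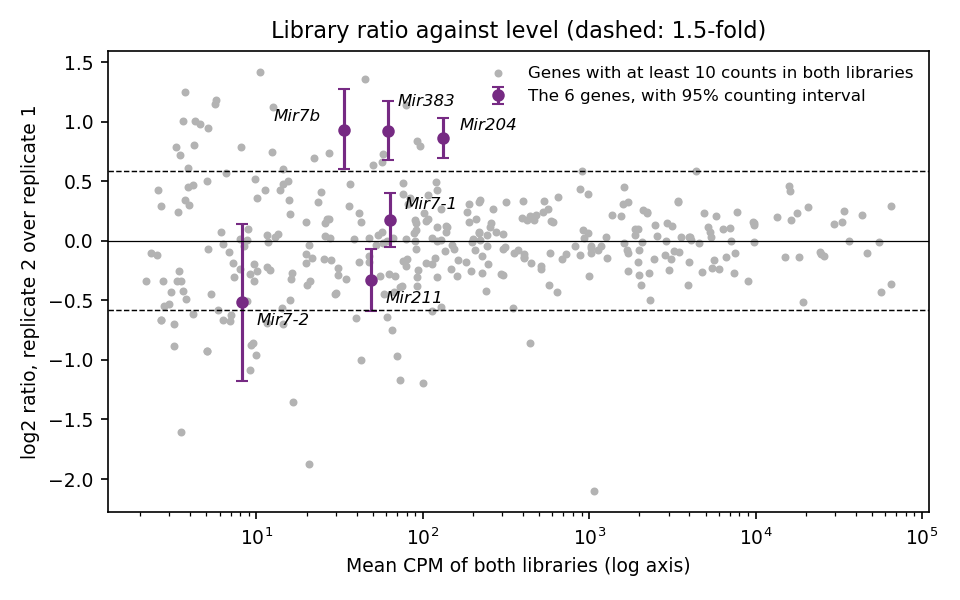
Log2 ratio of replicate 2 to replicate 1 (y axis) against mean CPM (x axis, log). Grey points are the 360 genes with at least 10 counts in both libraries, purple points the 6 members with 95% counting intervals, and dashed lines 1.5-fold; Mir7b, Mir383 and Mir204 lie above the upper line and the other 3 between the lines.

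Relative to each other, the 3 shifted members kept similar proportions, as their similar ratios imply. The count of Mir204 was 2.11 times that of Mir383 in replicate 2 (exact interval 1.89 to 2.36) and 2.21 times in replicate 1 (1.86 to 2.63). The count of Mir383 was 1.81 times that of Mir7b in replicate 2 (1.55 to 2.12) and 1.82 times in replicate 1 (1.43 to 2.33).

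A mean count of 100 or more was reached by 267 genes, and 5 of these had a log2 ratio at least as high as that of Mir204. That limit is the lowest ratio of Mir7b, Mir383 and Mir204, so these 3 members pass it by construction. The 5 were these 3 members, Mir144 of red blood cells and Mir122 of liver. Some genes with fewer counts stood higher, such as Mir26a-1 with a log2 ratio of 1.42. Mir144 had 374 counts in replicate 2 (64.8 CPM) and 115 in replicate 1 (25.2 CPM), for a log2 ratio of 1.36. Mir122 had 631 counts in replicate 2 (109 CPM) and 226 in replicate 1 (49.5 CPM), for a log2 ratio of 1.14. With 2 libraries, a shared direction is a single difference and does not show that genes vary together.

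Other miRNAs of the eye gave the setting for Mir204 and Mir211. Mir184, of the lens and cornea, was rare, with 100 counts in replicate 2 (17.3 CPM) and 52 in replicate 1 (11.4 CPM). Its log2 ratio was 0.60, just over 1.5-fold. Mir31 had 1537 counts in replicate 2 (266 CPM) and 1477 in replicate 1 (324 CPM), a log2 ratio of -0.28. Mir205 had 82700 counts in replicate 2 (14330 CPM) and 71700 in replicate 1 (15716 CPM), a log2 ratio of -0.13. Both are also miRNAs of surface epithelium. The lens and cornea list of 3 genes summed to 14613 CPM in replicate 2 and 16052 CPM in replicate 1.

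Of the 9 genes of the retina and sensory list, 8 had at least 10 counts in both libraries. All 8 had a log2 ratio above 0 and within 1.5-fold, with a median of 0.17, where 173 of the 360 genes (48.1%) were above 0. Mir183, Mir96 and Mir182 form a cluster, so the 8 genes are not 8 separate observations, and nothing is read from this share. The most abundant were Mir183 (9775 ± 635 CPM, SD, n = 2), Mir182 (9643 ± 759 CPM) and Mir181a-1 (3983 ± 71.0 CPM). Mir183 and Mir182 are found in many sensory cells besides the retina. The list summed to 30341 CPM in replicate 2 and 27090 CPM in replicate 1.

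The list of pituitary and endocrine miRNAs, set beside the Mir7 genes, had 9 genes with a median log2 ratio of 0.43. Of these, 8 were above 0, 1 was over 1.5-fold higher in replicate 2 and none was over 1.5-fold lower. Over the 360 genes, 48.1% were above 0, 8.06% were over 1.5-fold higher and 8.06% over 1.5-fold lower. Genes of a family or cluster are not separate observations, so nothing is read from these counts. The 8 include 5 genes of the epithelial Mir200 family (Mir200a, Mir200b, Mir200c, Mir141 and Mir429), which made up most of the summed level. These 5 summed to 33175 CPM in replicate 2 and 25247 CPM in replicate 1, and the other 4 to 1242 CPM in replicate 2 and 973 CPM in replicate 1. Mir375, an endocrine miRNA of pancreatic islets and pituitary, had 5825 counts in replicate 2 (1009 CPM) and 3397 in replicate 1 (745 CPM), for a log2 ratio of 0.44. The log2 ratio was 0.43 for Mir212 and 0.13 for Mir132, both of which are also neuronal miRNAs. Mir325 had 425 counts in replicate 2 (73.6 CPM) and 389 in replicate 1 (85.3 CPM), for a log2 ratio of -0.21. Mir429 (15915 ± 3532 CPM), Mir200c (6993 ± 376 CPM) and Mir200b (4413 ± 1254 CPM) led the list. The 5 Mir200 genes stand in the surface epithelium list too. Mir200b, with a log2 ratio of 0.59, lay just past the 1.5-fold limit, and Mir200a, at 0.58, just inside it; with DESeq2 size factors both were past it. The list summed to 34417 CPM in replicate 2 and 26220 CPM in replicate 1.

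The other lists moved in both directions. Beside their counts stand the shares over the 360 genes, 8.06% over 1.5-fold higher in replicate 2 and 8.06% over 1.5-fold lower. Of the 13 neural genes with enough counts, 1 was over 1.5-fold higher in replicate 2 (Mir218-1) and 4 over 1.5-fold lower, and the list summed to 857 CPM in replicate 2 and 920 CPM in replicate 1. One of the 4, Mir128-1 at -0.59, was inside the limit with DESeq2 size factors. The leading neural genes were Mir137 (310 ± 8.26 CPM), Mir138-2 (129 ± 16.8 CPM) and Mir138-1 (113 ± 1.51 CPM). Mir124a-1, Mir124a-3 and Mir9-2 were at 0 in both libraries. Reads with several places are in no gene count, so 0 sets no limit on a gene such as Mir9-2, whose mature form is encoded by 3 genes in the RefSeq table. Neural genes were thus on both sides of 0, with 6 above and 7 below.

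The Hox cluster list summed to 2451 CPM in replicate 2 and 4655 CPM in replicate 1, led by Mir10b, Mir10a and Mir615. Of its 5 genes with enough counts, 2 were over 1.5-fold lower in replicate 2, and the median log2 ratio was -0.50. Striated muscle genes summed to 396 CPM in replicate 2 and 628 CPM in replicate 1, led by Mir206, Mir208b and Mir133b. Of 4 with enough counts, 2 were over 1.5-fold higher (Mir208b at 0.64 and Mir499 at 0.79) and 1 over 1.5-fold lower in replicate 2 (Mir206 at -0.86), with a median of 0.19. The sum follows Mir206, with 314 CPM in replicate 2 and 569.9 CPM in replicate 1, and the other genes summed to 82.0 CPM in replicate 2 and 58.1 CPM in replicate 1. Mir133a-1, Mir133a-2 and Mir1a-1 were at 0 in both libraries. Reads with several places are in no gene count, so these values do not show that the genes were silent. Red blood cell genes (Mir451a, Mir144 and Mir486) summed to 160.1 CPM in replicate 2 and 101 CPM in replicate 1. These genes did not move alike, with log2 ratios of 1.36 for Mir144, 0.39 for Mir451a and -0.19 for Mir486. Liver genes, led by Mir192, Mir122 and Mir194-2, summed to 263 CPM in replicate 2 and 191 CPM in replicate 1, and without Mir122 to 154 CPM in replicate 2 and 141 CPM in replicate 1. White blood cell genes, led by Mir223, Mir155 and Mir146, summed to 562 CPM in replicate 2 and 569 CPM in replicate 1. Surface epithelium genes, led by Mir203, Mir429 and Mir205, summed to 63309 CPM in replicate 2 and 63539 CPM in replicate 1. The near-equal sums join genes on both sides of 0. The log2 ratio was -0.51 for Mir203, 0.46 for Mir429 and -0.13 for Mir205, and the list median was 0.39. Mesenchyme and cartilage genes, led by Mir214, Mir140 and Mir143, summed to 70945 CPM in replicate 2 and 66010 CPM in replicate 1.

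**Figure D4:**
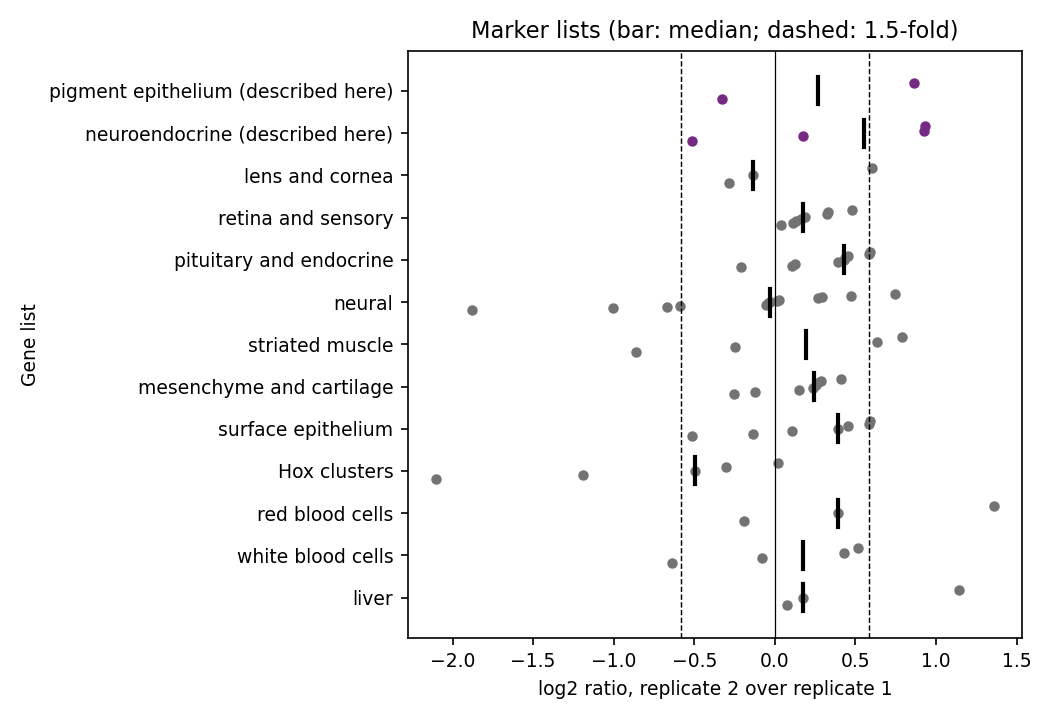
Log2 ratio of replicate 2 to replicate 1 (x axis) for each gene with at least 10 counts in both libraries, by gene list (y axis); black bars are medians and dashed lines 1.5-fold. The 6 genes described here are purple and spread over both sides of 0, and the Hox list has the lowest median.

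In the lists of red blood cells, liver and surface epithelium, 1 gene each was over 1.5-fold higher in replicate 2 (Mir144, Mir122 and Mir200b), and in that of white blood cells 1 gene, Mir146, was over 1.5-fold lower. No gene of the mesenchyme and cartilage list passed 1.5-fold. The part of the genes of these lists in the values of the 6 genes was not tested. Whether the dissections took different amounts of eye, pituitary or other neighbouring tissue was not tested. In bulk tissue, fewer cells of a type and less RNA per cell cannot be told apart. The labels call the libraries biological replicates and do not say how the embryos were shared between them, so the spread given here is that between these 2 samples.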

How the data were processed

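MicroRNA sequencing of mouse facial prominence was deposited by the authors as raw read counts per miRNA gene. Per the labels and the description files, the build was mm10 and the annotation GENCODE M4. The aligner is not given in the sources used. Each file has 3 columns, read from the layout as both strands, same strand and opposite strand, and the first equalled the sum of the other two in every gene line (0 exceptions). The same-strand column was used. The 4 read classes without a gene stayed out of totals; several-place reads were 31.0% of reads in replicate 2 and 30.7% in replicate 1. Names came from GENCODE release M21 (1894 of 1973 identifiers matched).

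For ratios, TMM factors were computed with edgeR 4.0.16 in R 4.3.3 over genes with at least 10 counts in both libraries. Counting intervals are 95% Clopper-Pearson for ratios and 95% Wilson for shares. Ratios and intervals were tested on simulated counts with Poisson error only. That simulation holds no PCR copies and no variation between embryos, so it does not check the intervals for these. No p-value was computed, since each side has 1 library. Settings also tried were size factors of DESeq2 1.42.0, gene totals, the unstranded column, other totals, other count minimums, a pseudocount of 5 reads, a 2-fold limit and leaving out each library. Members, lists and limits were chosen with earlier results of these data known. Named genes were the members, their neighbours in level, genes with their seeds, genes averaging 100 counts or more with a ratio at least that of the lowest of Mir7b, Mir383 and Mir204, and up to 3 leading genes per list. Mir375, Mir325, Mir200a, Mir218-1, Mir128-1 and the genes at 0 were named after their values were seen. Mir132, Mir212, Mir141, Mir96 and Mir26a-1 were also named outside these rules. Mir9-1, Mir1a-2 and Mir142 of the lists had no line by those names.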

Additional observations from a re-analysis of the deposited data

Results flagged for a closer look

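Reads with several places in the genome numbered 4058237 in replicate 2 and 3179149 in replicate 1. They belong to no gene in the files. Mir7-1 and Mir7-2 share the sequence of miR-7a-5p, and how many of its reads are in this class is not known. The column of counts opposite miRNA genes held 158904 counts in replicate 2 and 126885 in replicate 1, and none of them lay at the 6 genes. Each of these sums exceeds 3 counts, the limit used for a count of 0.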

How the results depend on the processing

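All 36 recomputed log2 ratios of the 6 genes, under 6 alternatives, stayed within their counting intervals. They ran from 0.89 to 0.96 for Mir7b, 0.90 to 0.95 for Mir383, 0.85 to 0.88 for Mir204, 0.17 to 0.20 for Mir7-1, -0.33 to -0.30 for Mir211 and -0.51 to -0.49 for Mir7-2. The summed level was 347 CPM of the gene total and 153 counts per 1000000 of all reads, a change that follows from the larger total. Genes over 1.5-fold in either direction numbered 58. They numbered 202 with a minimum of 1 count (104 higher and 98 lower in replicate 2), 21 with a minimum of 100 (12 and 9), and 17 at 2-fold (9 and 8). Of the 6 genes, 3 were over 1.5-fold higher in replicate 2 and 0 over 2-fold higher; this count under other settings was added after seeing the data, and it stayed at 3 in the other 5. Leaving out a library gave a summed level of 412 CPM in replicate 2 alone and 283 CPM in replicate 1 alone, and leaves no ratio. Depth limits Mir7-2 most, with 39 and 44 counts.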
